A study of Mus musculus with 4 samples.

Results

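The genes that encode the nuclear subunits of the respiratory chain were examined for acetylated histone H3 (H3K27ac) in mouse neural stem cells, in which Smchd1 had been deleted or kept. They were taken from the nuclear protein-coding genes of the RefSeq annotation by their symbols: Ndufa, Ndufb, Ndufc, Ndufs and Ndufv for complex I, Sdha to Sdhd for complex II, Uqcr and Cyc1 for complex III, Cox4 to Cox8 for complex IV and Atp5 for ATP synthase. This gave 85 of 21631 genes. By symbol, 40 were counted under complex I, 4 under complex II, 9 under complex III, 15 under complex IV and 17 under ATP synthase. Ndufa4 and its homologue Ndufa4l2 were thus counted under complex I, although Ndufa4 is now placed with complex IV. The rule used symbols and no measured value. The symbol pattern missed Cox4i1, Cox4i2, Cox7a2l and Ndufab1, which were counted separately.

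The respiratory chain sits in the inner mitochondrial membrane. Complexes I and II pass electrons from NADH and succinate to ubiquinone, complex III passes them on to cytochrome c, and complex IV passes them to oxygen. Complexes I, III and IV pump protons, and ATP synthase uses the proton gradient to make ATP. Most subunits are encoded in the nucleus, and the factors NRF1, GABP (an ETS protein) and YY1 are known to bind many of their promoters. H3K27ac marks active promoters and enhancers, and Smchd1 is a chromatin protein best known for gene silencing on the inactive X chromosome and at imprinted clusters.

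The cells were female neural stem cell lines derived from E14.5 embryos with 1 deleted and 1 floxed Smchd1 allele (del/fl). The maternal X, of 129 origin, carried the Xist deltaA allele, and the paternal X was Castaneus, while the strain field reads C57BL/6. One portion of the lines was transduced with the Cre retrovirus MSCV-Cre-puro, put under puromycin from 24 h and harvested on day 7, giving the Smchd1-deleted cells (del/del). The Smchd1-control cells were kept untransduced and, by their genotype field, also carry 1 deleted allele, so Smchd1 deletion, retroviral transduction and puromycin selection cannot be told apart. Each condition had 1 ChIP library and 1 input library, 4 libraries in all, so no difference has a replicate check and no test was made. The labels conflict in places: the antibody field names anti-H3K27me3 although the titles name H3K27ac, the control ChIP is titled fl/fl but has the genotype del/fl, and the control input has the genotype del/del.

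The deposited data are a MACS2 list of H3K27ac peaks for each condition, with each peak's position, summit and fold enrichment. Fold enrichment is the authors' ratio of tags at the summit to the local background of the input, so it ranks peaks within a list and its values in the 2 lists were set side by side without a ratio. The Smchd1-deleted list was made from 54194233 kept ChIP tags and held 91639 peaks, against 42277672 tags and 63698 peaks in the Smchd1-control list, a tag ratio of 1.28. Smchd1 itself had peaks in both lists, which does not check the deletion, since a peak can lie outside the floxed part. All 10 neural stem cell markers had peaks in both lists, with median strongest fold enrichments of 13.6 in the Smchd1-deleted and 13.4 in the Smchd1-control list, and all 5 markers of testis germ cells had none. Markers of other cell types had peaks in both lists at 2 of 6 neuronal, 4 of 5 astrocyte, 2 of 5 oligodendrocyte, 1 of 4 fibroblast, 1 of 4 microglial and 3 of 6 muscle genes. Rbfox3 (2.85-fold), Gfap (4.03-fold), Aif1 (3.02-fold) and Ckm (3.02-fold) had one in the Smchd1-deleted list alone, as had 6.02% of all coding genes. The part of other cell types in the results was not tested.

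Nearly all subunit genes carried the mark in both conditions. A peak within the gene body extended by 1 kb on each side was found at 79 of 85 genes in the Smchd1-deleted list and at 79 of 85 in the Smchd1-control list, against 64.1% and 59% of all nuclear coding genes. These were the same 79 genes (92.9%), while 58% of all coding genes had a peak in both lists. The subunit genes had 0 members with a peak in the Smchd1-deleted list only and 0 in the Smchd1-control list only, where the shares over all coding genes were 6.02% and 1.02%. The other 6 genes, Ndufb4b, Ndufb4c, Cox6a2, Cox7a1, Cox7b2 and Cox8c, had no peak in either list. By complex, both lists had a peak at 38 of 40 complex I, 4 of 4 complex II, 9 of 9 complex III, 11 of 15 complex IV and 17 of 17 ATP synthase genes.

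The subunit genes are short, with a median length of 7082 bases against 17329 bases for all coding genes, so a gene body offers fewer bases for a peak to fall on. Among genes of at most 5000 bases, 25 of 30 subunit genes (83.3%) had peaks in both lists, against 29.5% of all coding genes. From 5000 to 10000 bases the share was 33 of 33 against 53.5%, and from 10000 to 20000 bases it was 11 of 11 against 62.5%. Above 20000 bases it was 10 of 11 (90.9%) against 71.5%, the exception being Cox7b2.

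Enrichment was also higher than over coding genes in general. The strongest peak of each subunit gene had a median fold enrichment of 10.2 in the Smchd1-deleted list (range 3.69 to 18.8) and 9.48 in the Smchd1-control list (4.04 to 19.6). Over all coding genes with a peak the medians were 7.17 and 6.86. Ranked among all coding genes with a peak in the same list, the subunit genes had a median percentile of 81.6 in the Smchd1-deleted and 79.8 in the Smchd1-control list. Of the 79 genes, 51 in the Smchd1-deleted and 47 in the Smchd1-control list lay above the 75th percentile, 25 and 25 above the 90th, and 1 and 7 at or below the 25th. A strongest peak of at least 10-fold was found at 55.3% of the 85 subunit genes in the Smchd1-deleted and 37.6% in the Smchd1-control list, against 12.9% and 9.51% of all coding genes.

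**Figure D1:**
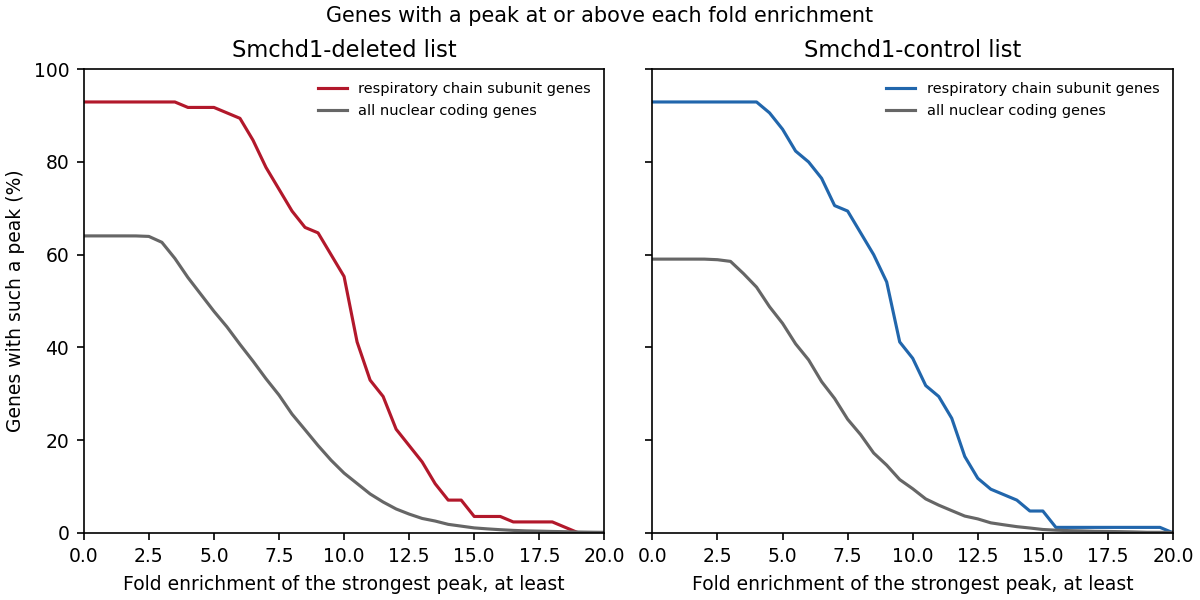
Share of genes (y axis, percent of 85 subunit genes in colour or of 21631 coding genes in grey) whose strongest H3K27ac peak reached at least the fold enrichment on the x axis, in the Smchd1-deleted (left) and Smchd1-control list (right). Both coloured curves start at 92.9% and lie above the grey ones, which start at 64.1% and 59%.

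The genes of both ribosomes, which are also expressed in most cells, looked alike in this respect. Both lists had a peak at 81 of 84 cytosolic ribosomal protein genes, with median fold enrichments of 10.8 in the Smchd1-deleted and 9.89 in the Smchd1-control list. All 78 mitochondrial ribosomal protein genes had peaks in both lists, with medians of 8.95 and 8.37. The subunit genes thus lay between the ribosomal sets in median level in both lists.

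In complex I, the NADH dehydrogenase and largest of the complexes, the median fold enrichment was 10.06 in the Smchd1-deleted and 9.48 in the Smchd1-control list. Its 7 core genes, which encode the subunits that carry the redox centres, had medians of 10.04 and 10.9, and the 31 accessory genes with a peak had 10.07 and 9.28. Ndufs3, an iron-sulphur protein subunit (chromosome 2 from 90894627 to 90904721), had the highest value of all 79 genes in both lists, at 18.8-fold in the Smchd1-deleted and 19.6-fold in the Smchd1-control list. Accessory subunit Ndufb3 (chromosome 1 from 58586397 to 58595964) followed with 18.5-fold in the Smchd1-deleted and 12.9-fold in the Smchd1-control list. Accessory subunit Ndufc2 (chromosome 7 from 97400003 to 97407800) had 14.8-fold and 15.1-fold in that order of lists. These 3 genes lay above the 96th percentile in both lists. At the other end, the accessory subunits Ndufv3 (5.71 and 5.04) and Ndufa1 (5.04 and 4.44) were the lowest of complex I in the Smchd1-deleted list.

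Complex II, succinate dehydrogenase, also works in the tricarboxylic acid cycle and is wholly nuclear-encoded. Its flavoprotein gene Sdha reached 11.1-fold in the Smchd1-deleted and 7.83-fold in the Smchd1-control list. The iron-sulphur subunit gene Sdhb had 10.7-fold in the Smchd1-deleted and 8.29-fold in the Smchd1-control list, and the membrane anchor gene Sdhc had 10.07-fold and 11.7-fold. Sdhd, the other anchor, had 8.14-fold and 8.88-fold. All 4 lay above the median of all coding genes in both lists, and their order differed between the lists.

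Complex III, the cytochrome bc1 complex, had the highest median in the Smchd1-deleted list, at 12.4-fold, while in the Smchd1-control list it was 8.83-fold. The hinge protein gene Uqcrh led with 16.5-fold in the Smchd1-deleted and 14.3-fold in the Smchd1-control list. These summits lay at -1065 and -1484 bases from its start (negative before the start). Smchd1-control peaks on both sides of that start had 6.66-fold and 5.14-fold. The cytochrome c1 gene Cyc1 had 13.1-fold and 11.9-fold, and the small subunit gene Uqcr11 had 12.9-fold and 11.5-fold. Uqcr10, another small subunit gene, had 9.86-fold and 13.7-fold, the second highest of complex III in the Smchd1-control list. Uqcrfs1, which encodes the Rieske iron-sulphur protein and was singled out after its values were seen, had 12.6-fold in the Smchd1-deleted list (percentile 93.9) and 6.05-fold in the Smchd1-control list (percentile 37.9). Its peaks in the 2 lists, 687 and 636 bases wide, overlapped, with summits 246 and 284 bases after the gene start.

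Complex IV, cytochrome c oxidase, had medians of 9.07-fold in the Smchd1-deleted and 9.08-fold in the Smchd1-control list over its 11 genes with a peak. Cox7c led with 13.8-fold in the Smchd1-deleted and 13.3-fold in the Smchd1-control list. Cox8a had 13.3-fold and 12.3-fold, and Cox6c had 11.8-fold and 10.3-fold. All 3 encode small structural subunits around the catalytic core, which mitochondrial DNA encodes. The larger nuclear-encoded subunit genes Cox5a (10.07 and 9.89) and Cox5b (9.91 and 8.4) lay in the middle of the range.

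ATP synthase had medians of 10.8-fold in the Smchd1-deleted and 10.3-fold in the Smchd1-control list. Atp5mpl, a small membrane subunit, had 13.1-fold in the Smchd1-deleted and 15.3-fold in the Smchd1-control list. The gene of the central stalk subunit gamma, Atp5c1, had 13.8-fold and 14.1-fold, and that of the peripheral stalk subunit b, Atp5pb, had 12.4-fold and 15.3-fold. These were the 3 highest by the mean of both lists. In the catalytic head, Atp5b (beta) had 14.6-fold and 12.5-fold and Atp5a1 (alpha) 11.9-fold and 6.66-fold. The delta and epsilon subunit genes of the central stalk were lowest, Atp5d with 6.55-fold and 5.04-fold and Atp5e with 6.55-fold and 6.25-fold.

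**Figure D2:**
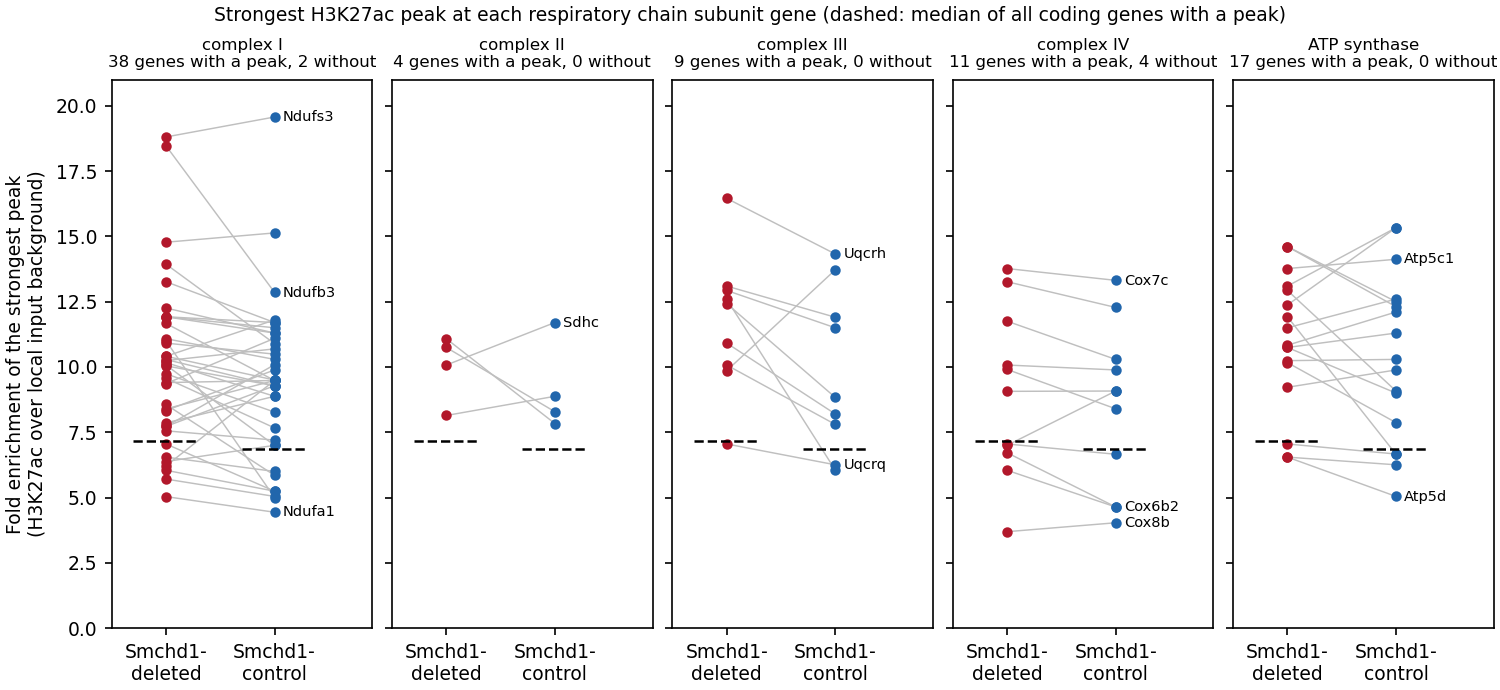
Fold enrichment of the strongest H3K27ac peak (y axis) at each subunit gene with a peak, by complex, in the Smchd1-deleted list (red, left in each panel) and the Smchd1-control list (blue, right). Grey lines join the values of 1 gene, dashed lines mark the medians of all coding genes with a peak (7.17 and 6.86), and 63 of 79 subunit genes in the Smchd1-deleted and 62 in the Smchd1-control list lie above them. In complex IV it is 6 and 7 of 11.

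Genes with a high value in one list mostly had a high value in the other, with exceptions. Across the 79 genes, Pearson's r of the log2 fold enrichments was 0.78 and Spearman's rho was 0.72, given as a description over genes that share their libraries. Over all coding genes with peaks in both lists they were 0.85 and 0.85. Exceptions beyond Uqcrfs1, also chosen after their values were seen, were Atp5a1 of ATP synthase, with percentiles of 91.6 in the Smchd1-deleted and 46.2 in the Smchd1-control list, and the complex I genes Ndufs4 and Ndufv1. Ndufs4 had 11.0-fold in the Smchd1-deleted list (percentile 86.9) and just under 5-fold in the Smchd1-control list (percentile 23.3). Ndufv1 had 6.21-fold in the Smchd1-deleted list (percentile 39.3) and 9.48-fold in the Smchd1-control list (percentile 79.8). Ndufs4 thus ranked higher in the Smchd1-deleted list and Ndufv1 lower, with 1 library a condition behind each value.

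The strongest peaks sat just after the gene start. RefSeq promoter records gave a start for 69 of the 85 genes, and 66 of these had a peak. The median summit of the strongest peak lay 193.5 bases after the start in the Smchd1-deleted and 206.5 bases after it in the Smchd1-control list. Within 500 bases after the start were 56 of 66 summits (84.8%) in the Smchd1-deleted and 53 (80.3%) in the Smchd1-control list, against 47.8% and 46.4% for all coding genes. Only 3 summits in the Smchd1-deleted and 4 in the Smchd1-control list were over 1000 bases from the start, against 24.5% and 23.7% for all coding genes. The start itself lay inside a peak at 27 of the 69 genes in the Smchd1-deleted and at 15 in the Smchd1-control list. Over all coding genes with a start the shares were 18.0% and 12.5%. At a further 23 and 30 genes it lay between peaks on both sides, against 21.7% and 20.8%. Peaks within 1 kb lay only after the start at 15 and 20 genes, against 14.6% and 16.6%. A peak only before the start was found at 1 gene in each list, against 1.99% and 2.18%. These shares include genes without a peak within 1 kb of the start. Such a peak was found at 66 of 69 subunit genes in each list, against 56.3% and 52.0% of all coding genes.

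**Figure D3:**
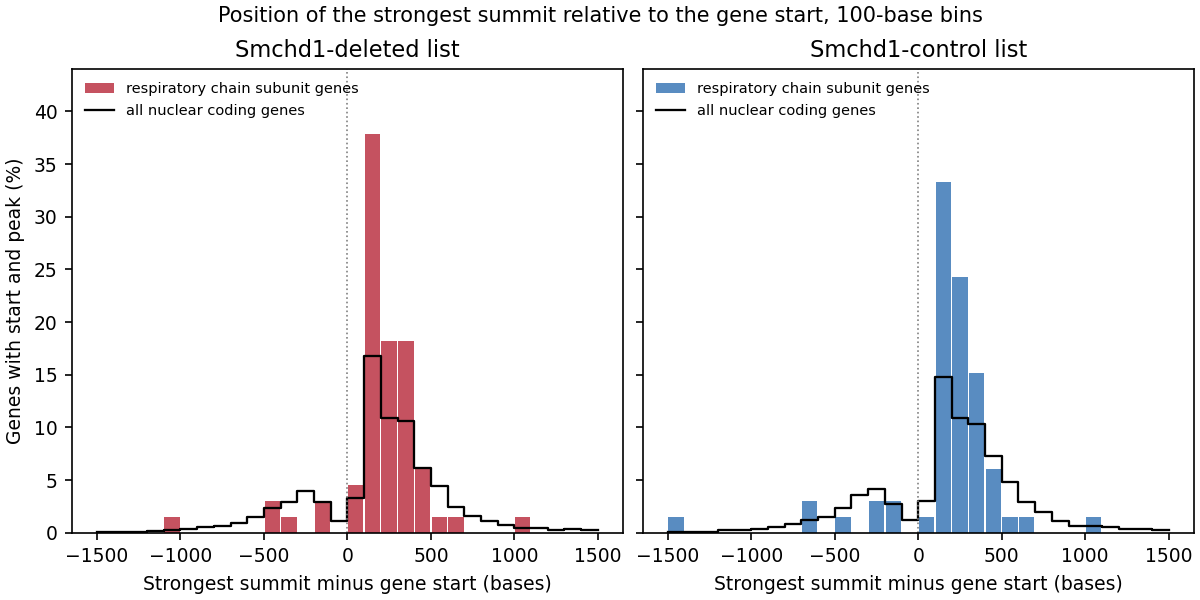
Distance of the strongest peak's summit from the gene start in bases (x axis, 100-base bins, positive after the start), as a percentage of genes with a start and a peak (y axis), for 66 subunit genes (bars) and all coding genes (black line), in the Smchd1-deleted (left) and Smchd1-control list (right). The bars gather within 500 bases after the start, which held 84.8% and 80.3% of the subunit genes. Summits beyond the axis, as at Ndufb6, are counted in the percentages but not drawn.

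The lists also placed these peaks alike. The strongest peaks of the 2 lists overlapped at 73 of 79 subunit genes (92.4%), against 76.5% of all coding genes with peaks in both. Their summits were a median of 33 bases apart, against 73 bases for all coding genes. Of all bases covered by a peak in either list at a gene, a median of 69.7% were covered in both, against 54.0%. Cytosolic and mitochondrial ribosomal protein genes were similar, with overlapping strongest peaks at 91.4% and 93.6% and summits a median of 36 and 42.5 bases apart. Their medians of bases covered in both lists were 77.2% and 73.2%. In no case did 2 subunit genes share a peak.

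Some of the strongest peaks also lay near the start of another gene. At 23 of 79 genes in each list the start of another coding gene was within 1 kb of the strongest summit. The share over all coding genes was not counted, so this count does not set the subunit genes apart. At Ndufs3 it was Kbtbd4, at Ndufb3 Fam126b, at Sdhd Timm8b, at Ndufb5 Mrpl47 and at Ndufa7 Rps28. The neighbour of Atp5j was Gabpa, which encodes the DNA-binding subunit of GABP. A peak at such a place cannot be assigned to 1 of the 2 genes. At Ndufb6 the strongest summit lay 9681 bases after the gene's own start in the Smchd1-deleted and 9748 bases after it in the Smchd1-control list, next to Topors and Smim27 (11.9-fold and 11.5-fold). The strongest peaks within 1 kb of its own start were weaker, with 8.90-fold in the Smchd1-deleted and 9.89-fold in the Smchd1-control list. At Uqcrh the summit lay at -1065 bases from the start in the Smchd1-deleted list (negative before the start), near the start of Lrrc41, and at -1484 bases in the Smchd1-control list. In the Smchd1-deleted list 1 peak of 3069 bases spanned this region and the start, while in the Smchd1-control list separate peaks on both sides of the start had 6.66-fold and 5.14-fold. At Ndufb10 the strongest Smchd1-control summit was near the start of Rps2, 3477 bases after the start of Ndufb10.

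The promoters of these genes hold binding motifs known from respiratory chain genes, of which a few are shown. The windows run from 150 bases before the start to 20 bases from it, 5′ to 3′ on the gene's strand, in the RefSeq GRCm38.p6 build, whose chromosomes are those of mm10. Capitals mark matches on either strand to NRF1 (GCGCA, any base, then GCGC), ETS (CCGGAAG), YY1 (AANATGGCG), SP/KLF (GGGCGG) or CRE (TGACGTCA). Ndufs3 had the highest enrichment, Atp5j shares its region with Gabpa, and Cox8a was among the highest of complex IV.
Ndufs3 (chr2:90904702-90904871, minus strand): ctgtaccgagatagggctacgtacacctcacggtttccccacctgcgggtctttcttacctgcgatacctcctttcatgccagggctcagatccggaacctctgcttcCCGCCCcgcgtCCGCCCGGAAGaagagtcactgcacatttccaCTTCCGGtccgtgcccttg
Atp5j (chr16:84834957-84835126, minus strand): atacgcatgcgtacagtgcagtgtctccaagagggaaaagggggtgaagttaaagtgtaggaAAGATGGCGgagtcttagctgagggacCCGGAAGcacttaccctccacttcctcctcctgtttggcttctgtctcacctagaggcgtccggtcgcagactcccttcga
Cox8a (chr19:7217597-7217766, minus strand): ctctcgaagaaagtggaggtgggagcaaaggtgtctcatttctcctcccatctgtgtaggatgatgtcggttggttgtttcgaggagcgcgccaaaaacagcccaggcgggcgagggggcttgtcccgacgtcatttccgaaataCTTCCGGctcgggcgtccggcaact

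In Ndufs3 an ETS match overlaps an SP/KLF match of the other strand, and another ETS match begins at the base after the start base. Atp5j holds a YY1 and an ETS match in this window, and Cox8a an ETS match across its start. Windows of related genes with and without strong peaks stand beside the isoforms.

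Motif shares were counted in windows from 250 bases before to 50 bases after each start, on both strands, over the 69 subunit genes and the 17274 coding genes with a promoter record. NRF1 was found at 17 subunit genes (24.6%) against 7.25% of all coding genes, ETS at 17 (24.6%) against 13.1%, and YY1 at 10 of 69 against 3.67%. At least 1 of these 3 was found at 38 genes (55.1%) against 21.2%. Among coding genes with peaks in both lists the shares were 11.6% for NRF1, 19.8% for ETS and 5.80% for YY1. At least 1 of the 3 was found at 32.5% of them. Among the 66 subunit genes with such peaks the counts were again 17, 17, 10 and 38. SP/KLF was found at 27 genes (39.1%) against 49.8% of all coding genes, and CRE at 4 (5.80%) against 2.58%. With peaks in both lists, SP/KLF was found at 26 of 66 subunit genes against 67.8% of coding genes. For CRE it was 4 of 66 against 3.54%. A match is a run of letters and not a measured binding site, and the NRF1 and CRE words can match both strands at 1 place.

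Enrichment was also set beside the motifs. Genes with an NRF1 match had median fold enrichments of 10.2 in the Smchd1-deleted and 8.88 in the Smchd1-control list, and those without had 10.3 and 9.50. With an ETS match the medians were 10.7 and 9.89, and without 10.2 and 9.48. With a YY1 match they were 10.6 and 9.54, and without 10.2 and 9.48. The 4 genes with a CRE match (Ndufa10, Ndufb2, Uqcrfs1 and Ndufa11) had 9.42 and 6.53, and the 62 with a peak but no match had 10.3 and 9.49. With an SP/KLF match the medians were 10.3 and 9.38, and without 10.3 and 9.48.

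The few subunit genes without a peak had a lower median number of CpG sites. The 66 subunit genes with a promoter record and peaks in both lists had a median of 19 CpG sites in the 300 bases, and 78.8% of them had at least 15. The 3 such genes without a peak (Ndufb4b, Cox7a1 and Cox7b2) had 5 to 10, with a median of 7, and none had 15. The ranges overlapped, since the genes with peaks had 2 to 39, with 2 at Cox8b, 5 at Cox7b and 8 at Ndufc2. Over all coding genes with a promoter record the median was 14 and 48.0% had at least 15, and over those with peaks in both lists 70.4% had.

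Tissue isoforms and further gene copies made up all 6 genes without a peak. Cox6a1, the widely expressed isoform of subunit VIa, had 7.05-fold in the Smchd1-deleted and 6.66-fold in the Smchd1-control list, while the heart and muscle isoform Cox6a2 had no peak in either. Cox7a2 had 7.00-fold and 9.08-fold, and its heart and muscle counterpart Cox7a1 had none. Cox7b had 6.72-fold and 4.64-fold, and Cox7b2, known from testis, had none. In each of these pairs the widely expressed gene had a peak in both lists and the tissue isoform in neither.

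The subunit VIII genes formed a graded set. Cox8a had 13.3-fold in the Smchd1-deleted and 12.3-fold in the Smchd1-control list. Cox8b, the heart and muscle isoform, had 3.69-fold and 4.04-fold, the lowest values of the 79 genes in both lists (percentiles 10.8 and 11.2). Cox8c, known from testis, had no peak in either list. Between Cox6b1 and the testis isoform Cox6b2 the contrast was one of level, with 9.07-fold and 9.08-fold at Cox6b1 and 6.04-fold and 4.64-fold at Cox6b2. The strongest summit of Cox6b2 lay 1047 bases after its start in the Smchd1-deleted and 1062 bases after it in the Smchd1-control list.

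In complex I, Ndufb4 had 7.72-fold in the Smchd1-deleted and 9.28-fold in the Smchd1-control list, and the further copies Ndufb4b and Ndufb4c had no peak in either. Ndufa4, which is named for complex I and now placed with complex IV, had 11.7-fold and 9.48-fold, and its homologue Ndufa4l2, known as a gene induced by low oxygen, had 6.04-fold and 5.25-fold. Copies annotated as pseudogenes and named after subunit genes had a peak in neither list at 16 of 16 loci, close to the 94.2% of all 10508 pseudogenes. Reads from near-identical copies may be split or lost in alignment, and how multiply aligned reads were treated is not given in the sources used here, so an absent peak at a copy is uncertain.

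**Figure D4:**
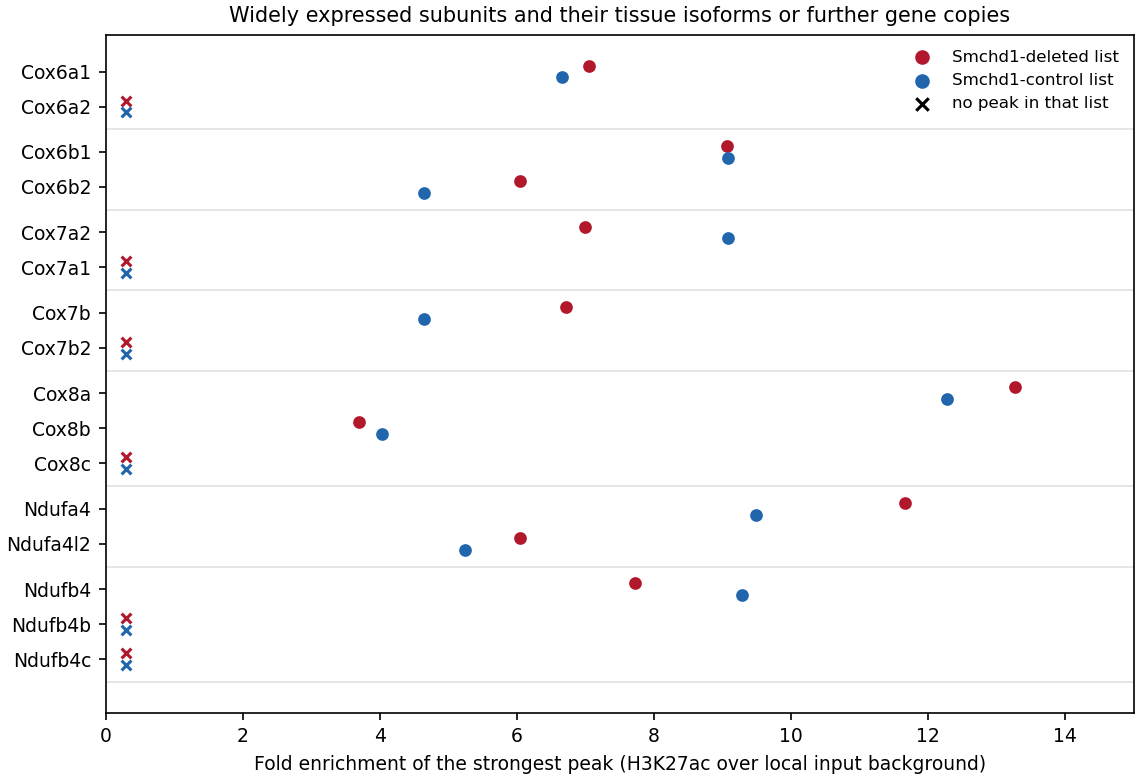
Fold enrichment of the strongest H3K27ac peak (x axis) for widely expressed subunit genes and their tissue isoforms or further copies (y axis, grouped by subunit), in the Smchd1-deleted (red) and Smchd1-control list (blue). Crosses at the left mark genes with no peak, and in each group the widely expressed gene, drawn at the top, has the highest value in both lists, as in Cox8a (13.3 and 12.3) above Cox8b (3.69 and 4.04).

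The promoter windows of 5 of these genes are shown because the pairs differ in peaks, with Cox8b beside the Cox8a window given before. The Cox7a2 and Ndufb4 windows each hold 14 CpG sites, and those of Cox8b, Cox7a1 and Ndufb4b hold 1, 5 and 1. Cox7b and Cox7b2, which also differ in peaks, are not shown and go the other way. From 250 bases before to 50 bases after the start, Cox7b, with peaks in both lists, had 5 CpG sites and no motif match. Cox7b2, with no peak, had 10 CpG sites there and an SP/KLF match beginning at -72 bases from the start. Capitals have the same meaning.
Cox8b (chr7:140900427-140900596, minus strand): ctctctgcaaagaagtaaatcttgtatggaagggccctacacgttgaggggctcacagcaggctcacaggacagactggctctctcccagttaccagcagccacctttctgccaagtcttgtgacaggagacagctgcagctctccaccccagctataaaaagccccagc
Cox7a2 (chr9:79759834-79760003, minus strand): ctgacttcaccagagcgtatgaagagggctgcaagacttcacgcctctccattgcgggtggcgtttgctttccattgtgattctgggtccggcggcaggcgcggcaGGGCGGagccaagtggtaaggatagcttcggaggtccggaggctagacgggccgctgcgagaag
Cox7a1 (chr7:30184021-30184190, plus strand): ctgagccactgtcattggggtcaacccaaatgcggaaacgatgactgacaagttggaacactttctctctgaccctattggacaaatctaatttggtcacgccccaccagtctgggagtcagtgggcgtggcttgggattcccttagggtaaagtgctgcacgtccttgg
Ndufb4 (chr16:37654349-37654518, minus strand): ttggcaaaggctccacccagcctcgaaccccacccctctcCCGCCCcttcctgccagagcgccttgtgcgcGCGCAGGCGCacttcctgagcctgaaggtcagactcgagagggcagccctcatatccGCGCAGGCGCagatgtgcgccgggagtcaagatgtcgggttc
Ndufb4b (chr19:25032958-25033127, plus strand): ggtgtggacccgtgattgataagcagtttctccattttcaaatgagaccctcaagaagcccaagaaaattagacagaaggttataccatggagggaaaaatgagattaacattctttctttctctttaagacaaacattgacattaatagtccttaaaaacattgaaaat

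In these windows Ndufb4 holds an NRF1 match at 2 places and an SP/KLF match, and Cox7a2 holds an SP/KLF match. No capitals stand in Cox8b, Cox7a1 or Ndufb4b, which says only that these letters are absent from the windows.

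Beyond the strongest peaks, the lists differed in weak peaks at the subunit genes, in the gene bodies and their 1 kb margins. The strongest peak had a median width of 884 bases in the Smchd1-deleted and 712 bases in the Smchd1-control list, against 653 and 556 bases for all coding genes. All peaks of a gene together covered a median of 1383 bases in the Smchd1-deleted and 1044 bases in the Smchd1-control list, against 1453 and 1164 bases. The genes had 185 distinct peaks in the Smchd1-deleted and 155 in the Smchd1-control list.

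Of the Smchd1-deleted peaks at subunit genes, 46 (24.9%, exact Clopper-Pearson 95% interval 18.8 to 31.7, counting error only) overlapped no Smchd1-control peak, against 47.9% of all peaks over coding genes. In the Smchd1-control list it was 8 peaks (5.16%, interval 2.25 to 9.92) against 22.3%. None of the strongest peaks of the 79 genes was among them in either list. These list-only peaks were weak, with fold enrichments of 2.29 to 4.70 (median 3.24) in the Smchd1-deleted and 3.03 to 5.25 (median 3.73) in the Smchd1-control list. Peaks that overlapped one of the other list had medians of 7.86 and 7.00. At cytosolic and mitochondrial ribosomal protein genes, 21.4% and 27.4% of Smchd1-deleted and 6.86% and 11.7% of Smchd1-control peaks were list-only. The Smchd1-deleted library had more ChIP tags and a longer list. In lists of equal length it had 160 peaks at subunit genes, of which 16.25% were list-only, and the Smchd1-control list had 155, of which 7.74% were. The list-only percentage of Smchd1-deleted peaks was 15.1 at −log10 q of at least 5 and 8.33 at a fold enrichment of at least 5. These percentages in lists of equal length and at higher thresholds are for subunit genes only. The shares over all coding genes given above are for the lists as deposited, so the 2 cannot be compared.

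List-only peaks lay mostly away from the starts in the Smchd1-deleted list, and on both sides of the 1 kb limit in the Smchd1-control list. Of peaks with a summit within 1 kb of the start, 6 of 105 (5.71%) in the Smchd1-deleted and 4 of 108 (3.70%) in the Smchd1-control list were list-only, against 19.4% and 4.89% at all coding genes. Farther than 1 kb from the start it was 34 of 49 (69.4%) and 3 of 19 (15.8%), against 58.8% and 31.8%. The Smchd1-deleted list thus had 49 peaks away from starts where the Smchd1-control list had 19. In all, 27 of 79 subunit genes (34.2%) had at least 1 list-only peak in the Smchd1-deleted and 8 of 79 (10.1%) in the Smchd1-control list, against 67.9% and 40% of all coding genes with a peak in that list, which are longer.

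**Figure D5:**
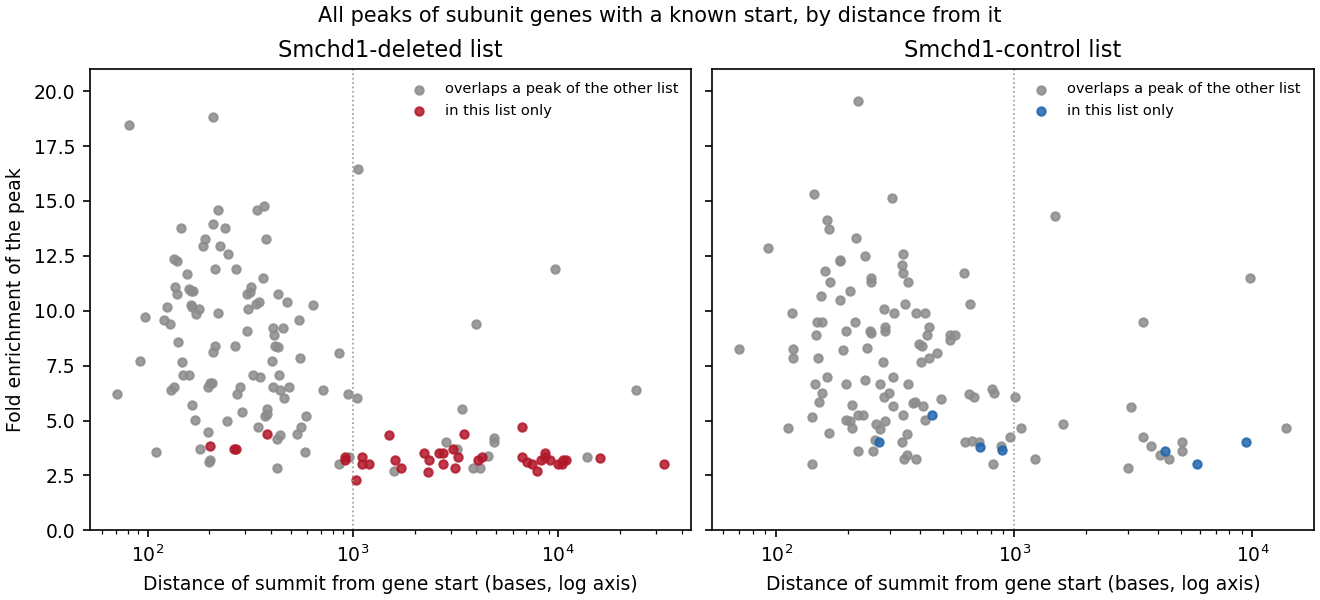
Every peak of the subunit genes with a known start, by the distance of its summit from the start in bases (x axis, log scale) and its fold enrichment (y axis), in the Smchd1-deleted (left) and Smchd1-control list (right). Grey points overlap a peak of the other list, coloured points do not, and the coloured points lie no higher than 4.70-fold on the left, 34 of 40 of them beyond 1 kb, and no higher than 5.25-fold on the right.

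The largest groups of such peaks in the Smchd1-deleted list were at complex I genes. Ndufs7, an iron-sulphur subunit gene (chromosome 10 from 80249105 to 80256794), had 9 peaks covering 3384 bases in the Smchd1-deleted list and 3 covering 1553 bases in the Smchd1-control list. Of the 9 peaks, 6 were list-only, with fold enrichments of 2.67 to 4.70 at 2337 to 8246 bases after the start. Its start peak was in both lists, with 10.4-fold in the Smchd1-deleted and 11.8-fold in the Smchd1-control list. Ndufs8 (chromosome 19 from 3908863 to 3912774) had 7 peaks covering 3178 bases and 3 covering 1876 bases, with 4 list-only peaks in the Smchd1-deleted list between 2343 and 4091 bases after the start. Ndufv3 had 4 list-only peaks in the Smchd1-deleted list, all of 3.02-fold to 3.36-fold and over 7 kb after its start, and Ndufa11 had 3.

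Other genes with long or unequal coverage belong to several complexes. Atp5d was covered over 3538 bases in the Smchd1-deleted and 1781 bases in the Smchd1-control list, Uqcrh 3069 and 2834 bases, Ndufa11 2014 and 781 bases and Sdhb 2248 and 1126 bases. A few genes were covered more in the Smchd1-control list. Cox7a2 had 929 bases in the Smchd1-deleted and 1330 bases in the Smchd1-control list, Ndufa4l2 801 and 1143 bases, Ndufs5 478 and 667 bases, Atp5g2 2000 and 2146 bases and Uqcr11 1729 and 1848 bases. Of the 8 list-only peaks of the Smchd1-control list, that of Sdha was the strongest, with 5.25-fold at -453 bases from the start.

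The 3 X-linked subunit genes all had weaker peaks than most autosomal ones. Ndufb11 (X from 20615326 to 20617619) had 6.55-fold in the Smchd1-deleted and 6.00-fold in the Smchd1-control list. Cox7b (X from 106015700 to 106022450) had 6.72-fold and 4.64-fold, and Ndufa1 (X from 37187588 to 37191238) had 5.04-fold and 4.44-fold. All 3 lay below the median of all coding genes with a peak in both lists, at percentiles of 43.1, 45.0 and 26.1 in the Smchd1-deleted and 36.6, 19.0 and 16.3 in the Smchd1-control list. The 76 autosomal subunit genes with a peak had medians of 10.3-fold and 9.48-fold. Coding genes of X in general were lower as well, with medians of 5.0-fold and 4.84-fold, and 30.4% of them had peaks in both lists. The lists do not separate the Xist deltaA-bearing 129 X from the Castaneus X. The X-linked genes had 5 peaks in the Smchd1-deleted and 4 in the Smchd1-control list, of which 0 were list-only in either. Over all X-linked coding genes 43.9% and 10.3% of peaks were list-only.

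Genes of the rest of the pathway mostly had peaks in both lists too, at lower median levels than the subunit genes, while the medians of all coding genes with a peak were 7.17 and 6.86. Both lists had peaks at 14 of 14 complex I assembly factors (median fold enrichments of 7.39 in the Smchd1-deleted and 7.57 in the Smchd1-control list) and at 29 of 29 assembly factors of complexes II to V (8.90 and 7.67). They were also found at 13 of 13 genes of the tricarboxylic acid cycle (9.40 and 8.27), 16 of 16 glycolytic genes (8.82 and 7.97) and 16 of 16 nuclear regulators of mitochondrial genes (7.72 and 7.36), which include Nrf1, Gabpa and Yy1. Of 7 further subunits and carriers, among them Cox4i1, Cox4i2, Cox7a2l and Ndufab1, 6 had peaks in both lists (10.07 and 9.44), and the testis cytochrome c gene Cyct, named after its values were seen, had none. In each of these gene sets, 0 genes had a peak in 1 list only. Over all coding genes 58% had peaks in both lists, 6.02% in the Smchd1-deleted list only and 1.02% in the Smchd1-control list only.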

How the data were processed

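H3K27ac ChIP and input libraries of 1 Smchd1-deleted and 1 Smchd1-control culture were compared through the 2 deposited peak lists. Reads were aligned with Bowtie 0.12.9 to mm10, per the submitters' processing notes. MACS2 2.1.0.20140616 called peaks in each ChIP with the matching input as background, down-sampling the larger library and keeping peaks with q-values up to 0.05, per the file headers. In the authors' lists each peak has a fold enrichment ratio, a pileup signal at the summit, and −log10 p and −log10 q values, per the file headers. None is scaled between libraries, so fold enrichment was used within a list. Depth and list length differ between the libraries, which changes how many weak peaks are called.

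A peak belonged to a gene if it shared at least 1 base with the gene body extended by 1000 bases, and to both lists if it shared at least 1 base with a peak of the other list. Chromosomes 1 to 19 and X were used. Gene bodies, starts and promoter sequences came from RefSeq (GRCm38.p6); 16 of the 85 genes had no start there. Percentiles are among coding genes with a peak in the same list. Counts were made with Python 3.11.15, pandas 2.3.3, numpy 2.4.6 and scipy 1.17.1, and plots with matplotlib 3.10.9. The overlap and motif searches were tested on simulated data. Named were the genes without a peak in 1 or both lists, the 3 most enriched of each complex, the 5 most covered and the 5 with the largest coverage differences each way, X-linked genes and tissue isoforms with their partners (38 genes, of which 1 is not reported here). Others are given for their place in the chain, as extremes or, where stated, after their values were seen. The members and gene lists were chosen with earlier results of these data known. Other gene margins, peak thresholds and lists of equal length were tried as alternatives.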

Additional observations from a re-analysis of the deposited data

How the results depend on the processing

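No paired analysis was possible because each condition had 1 library. The results were recomputed with gene bodies without extension or extended by 2500 bases, within 1 kb of the start, at a fold enrichment or −log10 q of at least 5, in lists of equal length and with a stricter rule for overlap. Of the values so obtained, 58 stayed within 1.5 times of the reported count or inside the 95% interval of the reported median or percentage, and 10 did not. Some of the 58 had little or no room to move. Lists of equal length left the Smchd1-control list whole, and a minimum fold enrichment keeps the strongest peak of every gene that still has one. The number of genes with a peak in the Smchd1-deleted list only became 1 with the 2500-base extension (Cox7a1, 3.19-fold) and 4 at a fold enrichment of at least 5 (Ndufs4, Cox6b2, Ndufa1 and Cox7b). Ndufs4 barely missed this limit in the Smchd1-control list, at just under 5-fold. Ndufa1 barely passed it in the Smchd1-deleted list, at 5.04-fold. The share over all coding genes at this limit is not given here. The list-only percentage of Smchd1-deleted peaks was 7.34 within 1 kb of the start, 8.33 at a fold enrichment of at least 5, 15.1 at −log10 q of at least 5 and 16.25 in lists of equal length, and that of Smchd1-control peaks was 1.98 without the extension. The median covered length was 974 bases in the Smchd1-deleted and 793.5 bases in the Smchd1-control list without the extension, and 1037.5 bases in the Smchd1-deleted list at a fold enrichment of at least 5. Without the extension Ndufa1 had no peak in either list. With 1 library a condition, differences between lists have no error, and weak peaks depend on depth.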
